A study of Homo sapiens with 2 samples.

Results

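The ATP-binding cassette (ABC) transporter genes were examined in C4-2, a human prostate cancer line that descends from LNCaP and expresses the androgen receptor. Members were all genes of the table whose name starts with ABC, a subfamily letter from A to G and a digit, which gave 4 of 1947 genes: ABCC4, ABCC5, ABCC10 and ABCG1. Of these, 3 belong to the ABCC subfamily of drug and organic anion exporters and 1 to the lipid transporters, where ABCG1 was found and 0 ABCA genes were. The study treated C4-2 cells at passage 10 to 15 with ebastine, an antihistamine given for allergies that blocks the H1 receptor, or with vehicle, after 24 hours of attachment, and its title names the histone methyltransferase EZH2 as the drug's target. Each group held 1 library of polyadenylated RNA, so no difference below has an error or a test over replicates, and the sources used here give neither a dose nor an exposure time.

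ABC transporters bind and hydrolyse ATP in a pair of nucleotide-binding domains and use the energy to move a substrate across a membrane. Members of the ABCC subfamily (multidrug resistance-associated proteins) export organic anions, conjugated drugs and signalling molecules such as cyclic nucleotides. Transporters of the ABCA and ABCG subfamilies mostly move sterols and phospholipids, and several of them are induced by the oxysterol-sensing liver X receptors (LXR). In prostate epithelium ABCC4 is known as an abundant transporter that androgen can induce.

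The members share a phosphate-binding loop called Walker A, which holds the ATP, and its coding sequence shows how their architecture differs. A search of the principal GENCODE release 29 transcripts for codons of this loop found 2 in ABCC4 (31 exons, 1325 codons), 2 in ABCC5 (30 exons, 1437 codons), 2 in ABCC10 (20 exons, 1464 codons) and 1 in ABCG1 (15 exons, 666 codons). Each ABCC protein thus carries both loops in 1 chain, whereas an ABCG1 chain carries 1 and is known to work as a dimer. The sequences are shown because they code for the loop that holds the ATP in each member. In each, the 24 bases that code for the loop are in capitals, 5′ to 3′ on the coding strand.
ABCC4 site 1: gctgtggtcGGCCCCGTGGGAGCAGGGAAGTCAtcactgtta
ABCC4 site 2: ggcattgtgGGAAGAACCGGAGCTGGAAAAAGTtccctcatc
ABCC5 site 1: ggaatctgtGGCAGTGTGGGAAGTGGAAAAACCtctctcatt
ABCC5 site 2: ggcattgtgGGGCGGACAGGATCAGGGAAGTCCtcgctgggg
ABCC10 site 1: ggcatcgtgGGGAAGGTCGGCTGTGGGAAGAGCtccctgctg
ABCC10 site 2: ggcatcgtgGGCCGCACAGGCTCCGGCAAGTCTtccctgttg
ABCG1 site 1: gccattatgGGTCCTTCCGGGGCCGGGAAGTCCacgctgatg
In the GRCh38 build the stretches lie on the minus strand at chr13:95186881-95188482 (ABCC4 site 1, across 2 exons and the intron between them), chr13:95062815-95062856 (ABCC4 site 2), chr3:183967713-183967754 (ABCC5 site 1) and chr3:183938044-183942751 (ABCC5 site 2, also across 2 exons). The others lie on the plus strand at chr6:43437946-43437987 (ABCC10 site 1), chr6:43447807-43447848 (ABCC10 site 2) and chr21:42271126-42271167 (ABCG1). The closest pair of loops was the later one of ABCC5 and that of ABCC10, with 18 of 24 identical bases. The loops within a protein were less alike, at 11 of 24 bases in ABCC4, 12 of 24 in ABCC5 and 11 of 24 in ABCC10. The loop of ABCG1 shared 16 of 24 bases with ABCC4 site 1 and with ABCC5 site 2.

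Few members of the family were in the table, which holds only genes with a p-value under 0.05 in the authors' own comparison. Of 48 ABC family genes (TAP1, TAP2 and CFTR included), 4 were listed, or 8.33%, beside 14.2% of the 13714 genes the authors tested. How many of the 48 were among the tested genes is unknown, so these shares cannot be compared directly. By subfamily, 3 of 12 ABCC genes and 1 of 5 ABCG genes were listed. None of the 12 ABCA, 11 ABCB, 4 ABCD, 1 ABCE and 3 ABCF genes was listed. ABCB1, which encodes the multidrug pump P-glycoprotein, ABCG2, the breast cancer resistance protein, and ABCA1, the partner of ABCG1 in cholesterol efflux, are among the 44 genes with no value here.

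The 4 listed genes went in opposite directions, and the drug exporters did not move together. ABCC5 and ABCC10 were higher in the ebastine library, and ABCC4 and ABCG1 were lower. In RNA from whole cultures, fewer cells that express a gene and less RNA per cell cannot be told apart. Of the 1768 listed genes that averaged 1 FPKM or more over both libraries, 43.0% were higher and 57.0% were lower, so a split of 2 and 2 is near that background. The order of levels was the same in both libraries: ABCC4 was highest, followed by ABCC5, ABCC10 and ABCG1. FPKM counts fragments per 1000 bases of transcript and per 1000000 mapped fragments, so it is scaled to length and these levels can be set side by side.

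**Figure D1:**
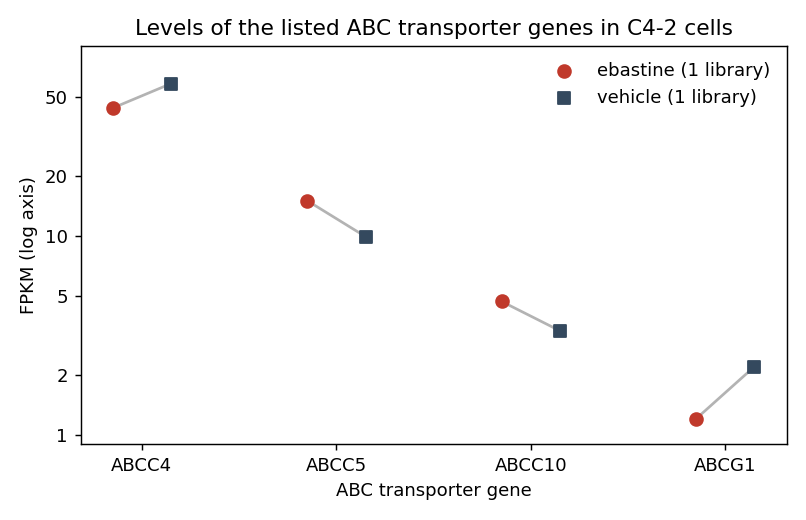
FPKM (log axis) of the 4 listed ABC transporter genes, with the ebastine library as a circle and the vehicle library as a square, 1 library each; the grey line joins the values of 1 gene. ABCC4 stood at 43.9 and 58.2 FPKM and ABCG1 at 1.21 and 2.21 FPKM, so these are lower with ebastine, while ABCC5 (15.0 and 9.93 FPKM) and ABCC10 (4.69 and 3.34 FPKM) are higher.

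ABCC4 encodes the multidrug resistance-associated protein 4, which exports cyclic nucleotides, prostaglandins, urate and nucleotide analogues. The gene (hg19 chromosome 13, 95672083 to 95953687) stood at 43.9 FPKM in the ebastine library, against 58.2 FPKM in the vehicle library. It was the most abundant of the 4 and ranked 290 of 1947 listed genes by mean FPKM. The ebastine value was lower by a ratio of 1.32-fold on the FPKM + 1 scale, which is -0.40 in log2. In the authors' deposited table ABCC4 has a p-value of 0.00865 and a q-value of 0.109, which is above 0.05. Its direction was that of most listed genes: their median log2 ratio was -0.32 on the same scale.

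ABCC5 encodes the multidrug resistance-associated protein 5, an exporter of cyclic GMP, nucleotide analogues and antifolates. The gene (hg19 chromosome 3, 183637724 to 183735727) stood at 15.0 FPKM in the ebastine library and at 9.93 FPKM in the vehicle library. This was the highest ratio of the 4, 1.47-fold on the FPKM + 1 scale, with a log2 ratio of 0.55. Of the 1947 listed genes, 366 had an FPKM ratio at least as high as that of ABCC5. The authors' deposited table gives ABCC5 a p-value of 0.00125 and a q-value of 0.0261.

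ABCC10 encodes the multidrug resistance-associated protein 7, which exports lipophilic agents such as taxanes. The gene (hg19 chromosome 6, 43395292 to 43423786) stood at 4.69 FPKM in the ebastine library and at 3.34 FPKM in the vehicle library. It was higher with ebastine by 1.31-fold on the FPKM + 1 scale, a log2 ratio of 0.39, and the authors' deposited table gives a p-value of 0.00385 and a q-value of 0.0619. Its reported locus spans 28.5 kb, longer than the 24.5 kb of the RefSeq gene, and DLK2 overlaps the end of ABCC10 in RefSeq. The reported locus can therefore include part of DLK2, and its part in the value was not tested.

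ABCG1 moves cholesterol out of cells to lipoprotein particles and is a classical LXR target. The gene (hg19 chromosome 21, 43619799 to 43717354) stood at 1.21 FPKM in the ebastine library, against 2.21 FPKM in the vehicle library. It was the least abundant member, at rank 1654 of 1947 by mean FPKM. The ratio was 1.45-fold lower on the FPKM + 1 scale (log2 ratio -0.54) and 1.83-fold lower in FPKM without a pseudocount. Of the 1947 listed genes, 242 had an FPKM ratio as low as that of ABCG1 or lower. The authors' deposited table gives ABCG1 a p-value of 0.0001 and a q-value of 0.00334, the smallest among the members.

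The differences were small in size. At a limit of 1.5-fold on the FPKM + 1 scale 0 of the 4 genes were called higher, beside 9.67% of the 1768 listed genes, and 0 were called lower, beside 18.6%. Without the pseudocount, a choice made after seeing the data, ABCC5 was called higher at 1.52-fold (15.5% of listed genes were) and ABCG1 was called lower at 1.83-fold (25.3% of listed genes were). Some planned settings, described below, also changed the counts. A pseudocount of 0.1 FPKM gave 1 higher and 1 lower, equal upper quartiles gave 1 higher and centring gave 2 higher. The shares of all listed genes under these settings were not computed. The q-values of ABCC5 and ABCG1 were under 0.05 in the authors' deposited table, as were those of 41.0% of the listed genes (15.6% higher and 25.4% lower). The members gave 1 of 4 in each direction, which is not read as a result about the family.

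**Figure D2:**
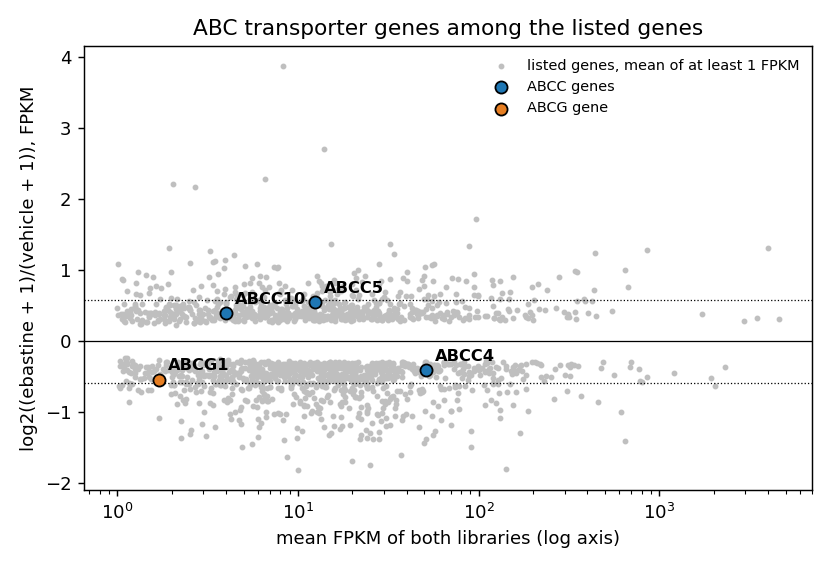
Log2 ratio of ebastine over vehicle on the FPKM + 1 scale against the mean FPKM of both libraries (log axis), for 1768 listed genes in grey, ABCC genes in blue and ABCG1 in orange; dotted lines mark 1.5-fold. The ABC genes lie between -0.54 and 0.55, inside the dotted lines, and the empty band around 0 is the authors' p-value limit.

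The balance among the 3 listed ABCC genes differed between the libraries. The scaling of the libraries cannot alter this, since a level ratio of genes within a library is free of it. Genes entered the table by the authors' p-value, so one listed as higher set against one listed as lower must give different ratios. The other 9 of the 12 ABCC genes have no value here, so the shares below cover the listed genes only. ABCC4 was 2.92 times as abundant as ABCC5 in the ebastine library and 5.87 times as abundant in the vehicle library, a 2.01-fold difference between the ratios. ABCC4 exceeded ABCC10 9.36 times with ebastine and 17.4 times with vehicle. The ratio of ABCC5 to ABCC10 was 3.21 with ebastine and 2.97 with vehicle, so these genes kept nearly the same proportion. Both were listed as higher, so a proportion that differs little is partly set by how genes entered the table. The 3 genes summed to 63.6 FPKM in the ebastine library and 71.5 FPKM in the vehicle library. ABCC4 made up 69.0% of that sum with ebastine and 81.4% with vehicle, ABCC5 23.6% and 13.9%, and ABCC10 7.37% and 4.67%. Against the lipid transporter, ABCC5 was 12.5 times as abundant as ABCG1 with ebastine and 4.49 times with vehicle, and ABCC10 was 3.88 times and 1.51 times as abundant. These ratios carry no error either, because each rests on 1 library per group.

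Rescaling the libraries moved all 4 ratios upward and turned none of them. Only the lower genes ABCC4 and ABCG1 could have turned, since each rescaling raised the ebastine values. A pseudocount added to both libraries cannot turn a ratio. The settings compared were pseudocounts of 0, 0.1 and 5 FPKM, equal sums, equal upper quartiles, and centring, in which the median ratio of listed genes that averaged 10 FPKM or more is set to 1. Over them the log2 ratio ran from 0.43 to 0.88 for ABCC5 and from 0.22 to 0.68 for ABCC10. It ran from -0.41 to -0.06 for ABCC4 and from -0.87 to -0.22 for ABCG1. Centring, a factor of 1.27 on each ebastine value, left ABCC4 at a 1.04-fold difference, so the size of its ratio depends on the scaling chosen. The centring median was taken over genes that passed the authors' p-value limit, and most of these were lower with ebastine. This factor may therefore remove differences between the treatments, and it was not shown to be one of library scaling.

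**Figure D3:**
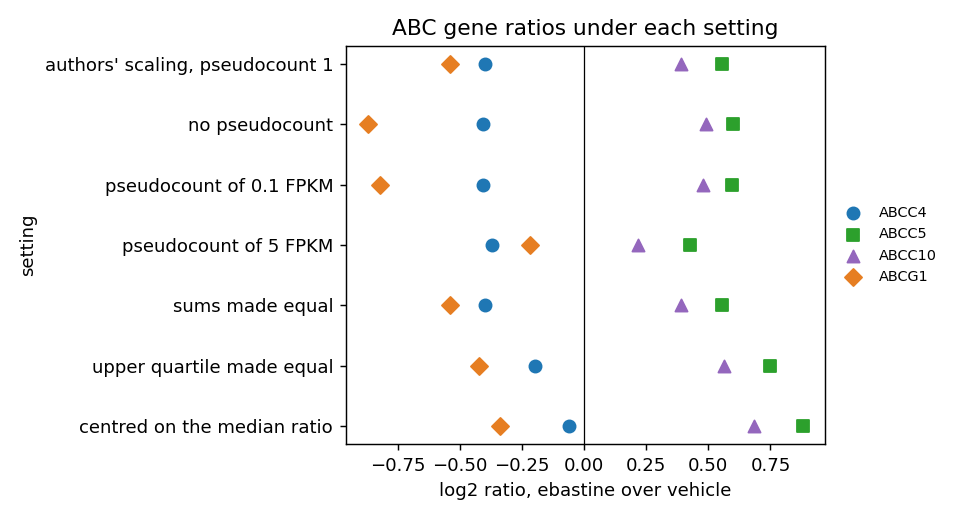
Log2 ratio of ebastine over vehicle for each ABC gene under the authors' scaling with a pseudocount of 1 FPKM (top) and 6 other settings. ABCC5 and ABCC10 stay right of 0 and ABCG1 and ABCC4 stay left of it in each setting, with ABCC4 at -0.06 after centring. The pseudocounts cannot move a gene across 0, and the rescalings could have moved only ABCC4 and ABCG1 across it.

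The few listed genes of a list of sterol efflux partners and LXR targets were higher in the ebastine library, where ABCG1 was lower. Sterol genes outside this list were not counted. Of 22 sterol efflux partners and LXR targets 3 were listed, beside 14.2% of all tested genes. All 3 were at least 1.5-fold higher, beside 9.67% of the listed genes. Their median log2 ratio was 0.67. This list was chosen with earlier results of these data known, and how many of the 22 were tested is unknown. The shares are therefore not read as enrichment. The lysosomal cholesterol exporter NPC1 stood at 18.2 FPKM with ebastine and 10.2 FPKM with vehicle. Its soluble partner NPC2 stood at 121 FPKM with ebastine and 77.9 FPKM with vehicle. The sterol carrier STARD4 stood at 13.5 FPKM with ebastine and 8.13 FPKM with vehicle. In the authors' deposited table NPC1 and NPC2 had q-values of 0.00466 and 0.00178, and STARD4 had 0.116. A q-value of 0.05 was passed by 41.0% of the listed genes. The 3 that were listed act in sterol movement inside the cell; the LXR genes themselves (NR1H2, NR1H3) and the LXR targets SREBF1, MYLIP and LPCAT3 have no value here.

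Phospholipid flippases and scramblases, which move lipids between the leaflets of a membrane as some ABC transporters do, were mixed. The table listed 4 of 14 (28.6%), beside 14.2% of all tested genes. As for the sterol list, this share is not read as enrichment. The 3 that averaged 1 FPKM or more split into 2 higher and 1 lower, beside 43.0% and 57.0% of the listed genes. Their median log2 ratio was 0.32. The flippase ATP9A stood at 11.1 FPKM with ebastine and 8.17 FPKM with vehicle, and ATP11A at 10.1 FPKM with ebastine and 7.84 FPKM with vehicle. The scramblase gene PLSCR1 stood at 0.853 FPKM with ebastine and 1.53 FPKM with vehicle. ATP8A1 was listed at 0.829 FPKM with ebastine and 0.438 FPKM with vehicle. It alone of the 4 passed a q-value of 0.05 (0.00723, from the authors' deposited table), beside 41.0% of the listed genes.

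The listed genes of glutathione metabolism, glucuronidation and sulphation, routes that yield substrates of ABCC transporters, differed by less than 1.5-fold under the authors' scaling. Of 23 genes of glutathione synthesis and conjugation, which supply the glutathione conjugates that several ABCC proteins export, 9 were listed (39.1%). Among all tested genes 14.2% were. This list too was chosen with earlier results known, so the share is not read as enrichment. Of the 9 genes 6 were higher and 3 lower, beside 43.0% and 57.0% of the listed genes. The median log2 ratio was 0.32, or 0.65 after centring. The highest ratios were those of GGT7, a glutamyltransferase family gene, at 19.5 FPKM with ebastine and 14.2 FPKM with vehicle, and of the glutathione transferase GSTK1 at 85.1 FPKM with ebastine and 63.6 FPKM with vehicle. The lowest were those of the cystine importer SLC7A11 at 10.4 FPKM with ebastine and 14.0 FPKM with vehicle, and of GSTO1 at 62.7 FPKM with ebastine and 82.6 FPKM with vehicle. In the authors' deposited table the q-values of all 9 were above 0.05, while those of 41.0% of the listed genes were under it. Of 17 genes of glucuronidation and sulphation 1 was listed, UGT8, at 6.32 FPKM with ebastine and 8.12 FPKM with vehicle.

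Genes for the signalling substrates of ABCC4 and ABCC5 were lower in the few cases listed. Of 32 genes that make or break down cyclic nucleotides 3 were listed (9.38%), beside 14.2% of all tested genes. All 3 were lower with ebastine, as were 57.0% of the listed genes, so 3 genes say little about this group. Their median log2 ratio was -0.29 and lay at 0.01 after centring. The cyclic GMP phosphodiesterase PDE9A stood at 23.5 FPKM with ebastine and 29.5 FPKM with vehicle. The guanylate cyclase subunit GUCY1B3 stood at 5.54 FPKM with ebastine and 7.01 FPKM with vehicle, and the phosphodiesterase PDE3B at 3.18 FPKM with ebastine and 4.07 FPKM with vehicle. In the authors' deposited table the q-values of all 3 were above 0.05, while those of 41.0% of the listed genes were under it. Of 14 prostaglandin genes the cyclooxygenase PTGS1 was listed, at 0.984 FPKM with ebastine and 1.61 FPKM with vehicle, and its q-value was 0.0165 (authors' deposited table).

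Folate genes, whose products handle substrates that ABCC5 is known to export, included the largest differences of these lists on the FPKM + 1 scale. The table listed 6 of 12, beside 14.2% of all tested genes. Of these 2 were higher and 4 lower, beside 43.0% and 57.0% of the listed genes, and the median log2 ratio was -0.56. A q-value of 0.05 was passed by 5 of the 6 in the authors' deposited table, beside 41.0% of the listed genes. The gene lists were chosen with earlier results of these data known, and how many of the 12 were tested is unknown. None of these shares is therefore read as a result about folate genes. The folate hydrolase FOLH1, known as prostate-specific membrane antigen, stood at 840.4 FPKM with ebastine and 494.9 FPKM with vehicle. The synthetase FPGS, which adds glutamates to folates, stood at 42.7 FPKM with ebastine and 34.6 FPKM with vehicle. The hydrolase GGH stood at 24.2 FPKM with ebastine and 45.6 FPKM with vehicle, and thymidylate synthase TYMS, a gene of dividing cells, at 39.4 FPKM with ebastine and 72.3 FPKM with vehicle. Over the 7 lists other than the ABC family, 26 listed genes averaged 1 FPKM or more. On the FPKM + 1 scale 4 of the 26 were at least 1.5-fold higher, beside 9.67% of the listed genes, and 3 were at least 1.5-fold lower, beside 18.6%.

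**Figure D4:**
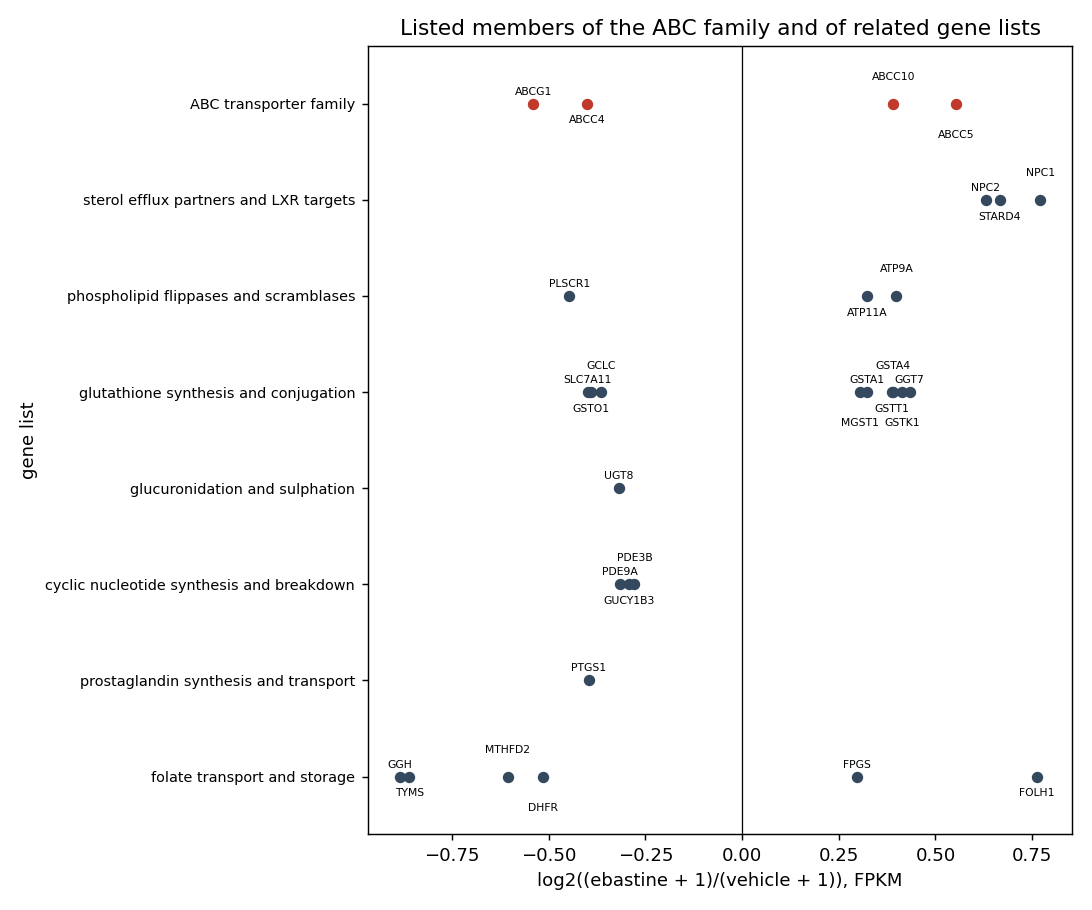
Log2 ratio of ebastine over vehicle on the FPKM + 1 scale for listed members, averaging 1 FPKM or more, of the ABC family (red) and of 7 related gene lists (dark blue), 1 point per gene. The ABC genes lie on both sides of 0, the 3 sterol genes lie at 0.63 to 0.77 and the folate genes span -0.88 to 0.76.

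The markers of the cell line were present and went both ways. Of 11 prostate luminal markers 6 were listed, beside 14.2% of all tested genes. Of the 6 markers 3 were higher and 3 lower, beside 43.0% and 57.0% of the listed genes. At 1.5-fold on the FPKM + 1 scale 3 were higher, beside 9.67% of the listed genes, and 2 were lower, beside 18.6%. These few markers are not read as a result about luminal genes. The highest ratios were those of the acid phosphatase gene ACPP, at 5.55 FPKM with ebastine and 2.21 FPKM with vehicle, and of FOLH1, given above. The lowest were those of the kallikreins KLK2, at 272 FPKM with ebastine and 465 FPKM with vehicle, and KLK3, at 1599 FPKM with ebastine and 2476 FPKM with vehicle. None of 5 basal, 5 leukocyte and 6 fibroblast and endothelial markers was listed, and their levels are not known here.

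The genes most like each member in level and ratio were found by distance between log2(FPKM + 1) values over the 2 libraries. TPRKB and MRPS11 were nearest to ABCC4, PINK1 and DGKQ to ABCC5, GTDC1 and GNG7 to ABCC10, and LOC284751 and TCEAL2 to ABCG1. TPRKB, for example, stood at 44.4 FPKM with ebastine and 58.7 FPKM with vehicle, a distance of 0.0195 from ABCC4. With only 2 libraries such likeness says little beyond the values.

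Listed genes within 500 kb of the members, chosen after their values were seen, did not share one direction. ABCG1 had 4 such neighbours. TFF3, a secreted trefoil peptide gene, lay 14.4 kb away and stood at 12.1 FPKM with ebastine and 15.6 FPKM with vehicle, while RSPH1, 175 kb away, stood at 4.64 FPKM with ebastine and 2.47 FPKM with vehicle. PDE9A lay 357 kb from ABCG1 and was lower with ebastine, as given above, and BC033260, 351 kb away, stood at 0.269 FPKM with ebastine and 0.531 FPKM with vehicle. DZIP1 lay 132 kb from ABCC4 and stood at 0.998 FPKM with ebastine and 1.52 FPKM with vehicle. DNPH1 lay 198 kb from ABCC10 and stood at 340 FPKM with ebastine and 255 FPKM with vehicle, while LOC100132354, 435 kb from ABCC10, stood at 0.0790 FPKM with ebastine and 0.553 FPKM with vehicle.

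The promoters of ABCC5 and ABCC4, the ABCC genes whose level ratio differed most between the libraries, are shown for the 250 bases before the RefSeq start (build GRCh38.p14, minus strand, 5′ to 3′). The windows are chr3:184017885-184018134 for ABCC5 and chr13:95301452-95301701 for ABCC4. Capitals mark matches on either strand to the motifs searched.
ABCC5: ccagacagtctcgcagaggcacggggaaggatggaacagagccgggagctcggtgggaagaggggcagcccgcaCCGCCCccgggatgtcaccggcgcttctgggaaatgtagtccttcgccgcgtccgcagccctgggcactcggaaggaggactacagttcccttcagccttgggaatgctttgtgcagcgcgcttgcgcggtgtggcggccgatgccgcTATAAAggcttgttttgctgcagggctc
ABCC4: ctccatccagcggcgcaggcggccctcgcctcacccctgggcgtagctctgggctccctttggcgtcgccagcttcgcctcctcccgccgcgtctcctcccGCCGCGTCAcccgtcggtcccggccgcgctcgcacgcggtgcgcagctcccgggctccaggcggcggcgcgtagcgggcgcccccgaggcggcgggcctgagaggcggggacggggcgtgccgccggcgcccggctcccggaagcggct
ABCC5 had 64.8% G and C and held 1 GC box (GGGCGG, in 42.6% of 35116 promoter windows of this length) and 1 TATA box (TATAAA, in 10.7%). ABCC4 had 80.4% G and C and held 1 antioxidant response element (TGACNNNGC, in 10.9%). Neither window held a CCAAT box (CCAAT, in 32.0%), an E-box (CACGTG, in 6.34%), a sterol response element (TCACNCCAC, in 0.883%), an LXR DR4 element (in 0.0142%) or an androgen response half-site (AGAACA, in 12.4%). ABCC10 had 2 start sites in the RefSeq table, of which one window held 3 GC boxes and the other an E-box, a TATA box and an antioxidant response element next to the TATA box. These matches are letters in a window, and the start site used in C4-2 cells is not known.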

How the data were processed

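Polyadenylated RNA of C4-2 cells was sequenced in 1 ebastine and 1 vehicle library. Per the submitters' processing notes, which give no versions, TopHat2 and Cuffdiff were used with the hg19 build. The FPKM values were estimated and scaled between the libraries by the authors. The authors' deposited table also holds a log2 fold change, a test statistic (a score not used here), a p-value and a q-value per gene. The sources used here do not give the gene models, the handling of multi-mapped reads, the strand setting or the dose. The table was split into columns by the sample letters in its header. Its rows end at a p-value of 0.0499, and its q-values follow an adjustment over 13714 genes. Since the authors' test had 1 library per group, the p-values concern this pair of libraries, not ebastine treatment in general.

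Computed here were log2 ratios of FPKM with a pseudocount of 1 FPKM, counts of genes past 1.5-fold among genes averaging 1 FPKM or more, level ratios between genes within a library, and medians over 8 gene lists. The pseudocount understates the change of low genes. Members and lists were chosen with earlier results of these data known. The genes named are all ABC genes of the table, all listed members of lists with at most 5 of them, otherwise the 2 highest and 2 lowest ratios, and the 2 genes nearest to each ABC gene. Genes named as chromosomal neighbours were chosen after their values were seen. In the related lists 2 genes are not reported here and enter no count or median of those lists. Depth is unknown, so no counting error can be given. The calculation was tested on simulated data. Python 3.11.15, pandas 2.3.3 and numpy 2.4.6 were used. Alternatives were other pseudocounts, rescalings, expression limits, a fold limit and a limit on the authors' q-value.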

Additional observations from a re-analysis of the deposited data

How the results depend on the processing

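A pseudocount cannot turn a ratio, and the rescalings, which raised the ebastine values, could have turned only ABCC4 and ABCG1. With that limit, the direction of ABCC4, ABCC5, ABCC10 and ABCG1 was the same under all 6 other pseudocounts and scalings. Their size was not: the log2 ratio of ABCC4 was -0.40 and lay at -0.06 after centring, that of ABCC10 was 0.39 and lay at 0.68 after centring and 0.22 with a pseudocount of 5 FPKM, and that of ABCG1 was -0.54 and lay at -0.87 with no pseudocount and -0.22 with a pseudocount of 5 FPKM. The ratio of ABCC5 was 0.55 and reached 0.88 after centring. The number of ABC genes at least 1.5-fold higher was 0, and became 2 after centring on the median ratio and 1 each with no pseudocount, a pseudocount of 0.1 FPKM and equal upper quartiles. The number at least 1.5-fold lower was 0, and became 1 with no pseudocount and 1 with a pseudocount of 0.1 FPKM. The median log2 ratio of the 4 genes was -0.0044, and became 0.0074 with the authors' q-value under 0.05 only, 0.31 after centring, 0.077 with a minimum mean of 5 FPKM, 0.041 with no pseudocount, 0.036 with a pseudocount of 0.1 FPKM, 0.00047 with a pseudocount of 5 FPKM and 0.18 with equal upper quartiles. A median so near 0 between 2 genes higher and 2 lower has no stable sign. That of the cyclic nucleotide genes was -0.29, and became 0.0073 after centring. No paired analysis was possible because each group holds 1 library. The setting without a pseudocount was chosen after seeing the data. Depth is unknown, and ABCG1, at 1.21 and 2.21 FPKM, is the member whose ratio depends most on the pseudocount. The rescalings were computed on a table limited to genes with a p-value under 0.05.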
